A study of Onthophagus taurus with 96 samples.

Results

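The potassium, calcium and TRP channel genes of the horned beetle Onthophagus taurus were described across 4 pupal tissues, both sexes and knockdown of doublesex (dsx), the transcription factor whose male and female isoforms direct sexual differentiation in insects. Members were the gene models whose annotated name equalled 1 of 39 channel names. These carry the name of a Drosophila gene (Dmel-Tmp-pain, Dmel-Tmp-sh, Dmel-Tmp-task7 and so on, shortened here to pain, sh and task7) or, for Hsap-Tmp-kcnt2, of a human gene (shortened to kcnt2). Of the 39 names, 32 were found and 7 (shawl, slo2, elk, irk3, sand, trpml and trpgamma) matched no gene model, and because 2 gene models carry the name hk, there were 33 member genes among 17483. Pain and kcnt2 had been picked for their levels in head horns, so their sex and knockdown differences there are given as descriptions with no test.

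Tissue came from pupae within a day of pupation: the brain (supraesophageal ganglion), the head horns (posterodorsal head epithelium), the thoracic horns (dorsal part of the first thoracic segment) and the genitalia. The sample called genitalia was epidermis of the hindmost abdominal segments, which in males hold the external copulatory organ, so its content differs by sex. Head horns, thoracic horns and genitalia are grouped here as epithelia. The dsxRNAi pupae had received 0.5 µg of double-stranded RNA (dsRNA) against a region shared by the dsx isoforms as last-instar larvae, and control pupae 1 µg of a dsRNA copied from plasmid sequence, each in 3 µl. Each of the 16 groups (dsxRNAi female, dsxRNAi male, control female and control male, in each tissue) held 6 libraries of bulk RNA, 96 in all. Knockdown acted on the whole animal after larval growth had begun and left part of the dsx RNA in place, and females of this species carry no more than a small head ridge where males grow horns. One pupa gave all 4 tissues, but the labels do not say which libraries came from the same animal, so the tests treat libraries as independent.

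Potassium channels let potassium leave a cell and so set the resting membrane voltage and end electrical impulses. Voltage-gated calcium channels turn a change in voltage into calcium entry, which triggers transmitter release at synapses and contraction in muscle, and TRP channels are cation channels of which many respond to heat, irritants, touch or light. Most are best known from neurons and muscle, but potassium and TRP channels also act in epithelia, and in Drosophila an inward rectifier potassium channel, Irk2, is needed for normal wing growth.

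Libraries held 3615803 to 19008005 gene-assigned reads (median 8.518e+06). Levels are given as CPM (reads of a gene scaled to a common library total), adjusted between libraries by TMM (trimmed mean of M values), and a gene was called higher or lower at an adjusted p (Benjamini-Hochberg, over all genes tested) under 0.05 in edgeR's quasi-likelihood test. The target of the knockdown, dsx (OTAU004153), had group medians of 7.01 to 20.5 CPM in dsxRNAi horns and genitalia and of 26.3 to 51.9 CPM in the control ones, with no overlap in male head horns (9.67 to 12.6 CPM in dsxRNAi, 31.3 to 81.7 CPM in control) and with overlap in female head horns (7.38 to 49 CPM in dsxRNAi, 19.6 to 75.1 CPM in control). The treatments also overlapped in female thoracic horns (6.73 to 21.9 CPM in dsxRNAi, 19.8 to 43.2 CPM in control) and female genitalia (2.76 to 45.6 and 8.39 to 129 CPM). In brains dsx had 0 to 8 reads per library in either treatment. Its brain medians were 0.473 CPM in dsxRNAi and 0.437 CPM in control females, and 0.161 and 0.248 CPM in males. No knockdown could thus be measured in brain. Neuron markers marked the brains: 11 of them summed to 2713 to 3572 CPM in control brains and to 244 to 618 CPM in control epithelia, leaving out ple, which also belongs to cuticle tanning. The vesicular glutamate transporter vglut and gad1, which makes GABA, were at 0 reads in 21 of the 24 head horn libraries each. The 4 markers of the glia list did not single out the brain, with sums of 600 to 774 CPM in control brains and 271 to 1921 CPM in control genitalia. Gs2 and moody had higher medians in control genitalia (432 and 53.2 CPM) than in control brains (212 and 16.4 CPM). Eaat1 and nrv2 were the higher in brain (187 and 276 against 17.5 and 110 CPM). Sums of this list therefore do not measure glia outside the brain. Muscle markers were present in every tissue, and 12 of them summed to 402 to 665 CPM in control brains, 699 to 2578 CPM in control head horns, 688 to 5374 CPM in control thoracic horns and 2664 to 12373 CPM in control genitalia. A set of 4 head horn libraries stood apart by muscle sums over 2500 CPM (S51 and S54 of dsxRNAi females, S67 and S68 of control males), and 1 genital library of control females, S89, had the lowest muscle and glia sums of its group (3355 and 271 CPM, against 6851 to 12373 and 1173 to 1921 CPM in the other 5). In bulk tissue, fewer cells of a type and less RNA per cell cannot be told apart.

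The first comparison asked which channel genes the brain held at higher levels than the epithelia, using the 48 control libraries. Of the 31 members that passed the filter on low counts, 22 were higher in brain and 4 were lower. Of the 11148 genes tested, 38.2% and 43% were higher and lower. The median log2 fold change of brain over epithelia was 2.47 over the 31 members and -0.06 over all genes tested. By class, 8 of 9 voltage-gated potassium channel genes and 3 of 3 calcium- or sodium-activated ones were higher in brain. The 9 count the 2 gene models named hk, a beta subunit, of which OTAU001422 was the 1 called lower. Both two-pore genes tested, all 5 voltage-gated calcium channel genes and the HCN channel were also higher. Of the 9 TRP genes tested, 2 were higher, 3 were lower and 4 were not called. Taken 1 epithelium at a time, 22 members were higher and 2 lower in brain than in head horns (36.8% and 39.8% of genes), 22 and 3 than in thoracic horns (37.4% and 40.1%) and 19 and 8 than in genitalia (35.7% and 41.7%). The 2 members that failed the filter were ork1, a potassium leak channel gene with 238 reads over all 96 libraries, and trp, a light-response channel in the Drosophila eye with 233.

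**Figure D1:**
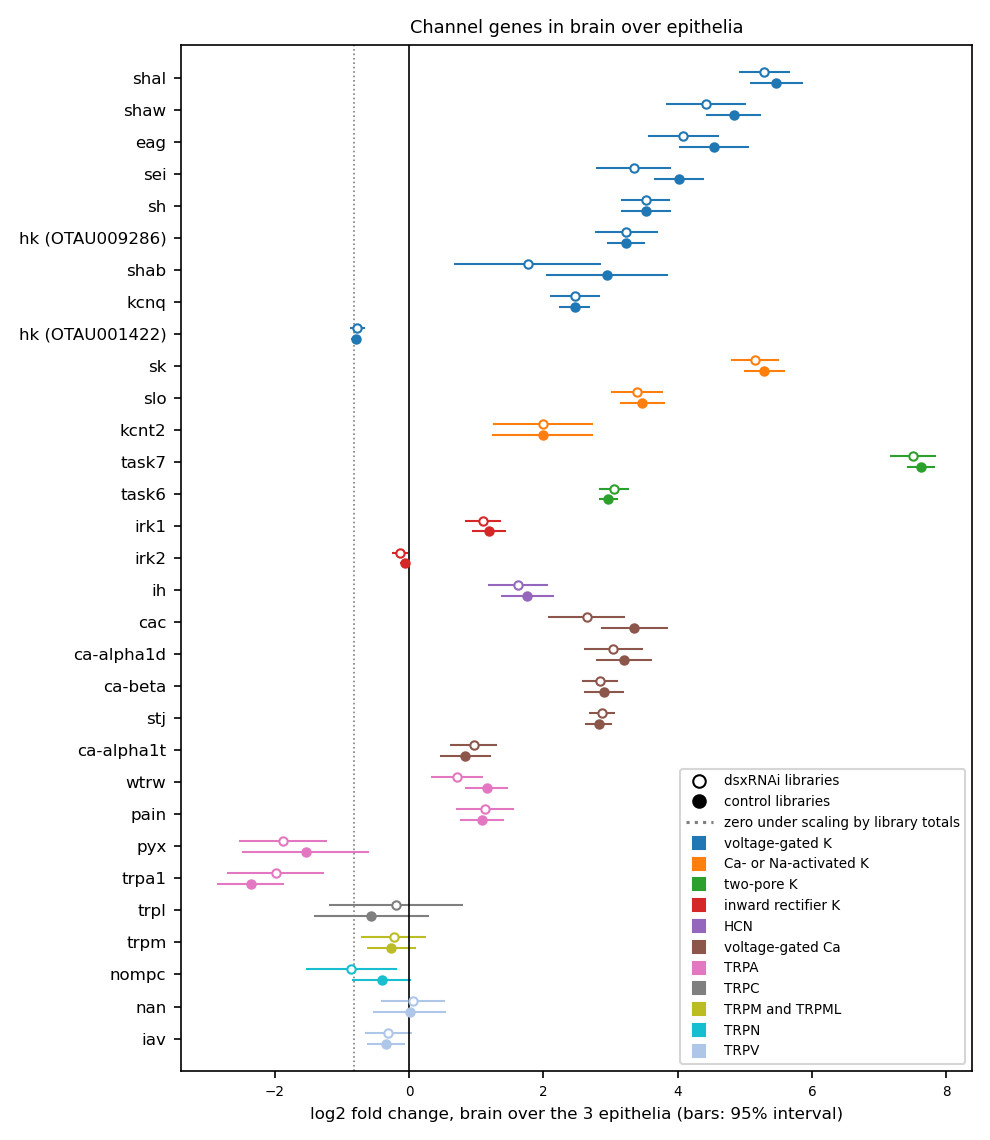
Log2 fold change of brain over the 3 epithelia for the channel genes tested, grouped by class, in dsxRNAi and control pupae; bars are 95% intervals, and the dotted line marks where 0 would lie with library totals in place of TMM. Task7 lies furthest right at 7.62 in controls and trpa1 furthest left at -2.36. In controls hk (OTAU001422), irk2, trpm, iav, nompc and trpl lie between 0 and the dotted line, so that their sign depends on the scaling.

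The two-pore potassium channels, which carry the leak current that sets the resting voltage, held the largest difference. Task7 (OTAU003223, scaffold 88) had 94.6 CPM in the lowest control brain, 100 in the median and 111 in the highest, against 0.118, 0.463 and 1.54 CPM in the 36 control epithelial libraries. Every brain library was above every epithelial one, and the 3 epithelia lay within the same low range. The log2 fold change was 7.62 (SE 0.11, edgeR adjusted p = 4.72e-42), a 197-fold difference. Task6, of the same family, had 195, 213 and 229 CPM (lowest, median, highest) in control brains and medians of 29.7 CPM in head horns, 28.5 in thoracic horns and 25.5 in genitalia, so it was lower but plainly present outside the brain (log2 fold change 2.97, SE 0.08, edgeR adjusted p = 2.89e-33).

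Among the voltage-gated potassium channels, which end the action potential and space successive ones, shal was the member most biased to brain. Shal, an A-type channel of the cell body and dendrites, had 151, 167 and 203 CPM in control brains against 0.167, 4.11 and 14.2 CPM in control epithelia, with no overlap (log2 fold change 5.47, SE 0.20, edgeR adjusted p = 4.52e-27). Shaw (4.84), eag (4.55), the ERG-type channel sei (4.02), Shaker itself (sh, 3.53), shab (2.95) and the M-type channel kcnq (2.47) were also called higher in brain. The name hk, in Drosophila the beta subunit Hyperkinetic that binds Shaker, was carried by gene models that went opposite ways. OTAU009286 (scaffold 161) was higher in brain (log2 fold change 3.23), with 12.4 to 15.9 CPM in control brains and 0.537 to 3.29 CPM in control epithelia. OTAU001422 (scaffold 1) had 28.3, 30.5 and 32.3 CPM in control brains and 42.3, 51 and 67.2 CPM in control epithelia, every brain below every epithelial library. It was called lower in brain (log2 fold change -0.79, SE 0.04, edgeR adjusted p = 1.07e-21), but with library totals in place of TMM the value was 0.04 (adjusted p = 0.616), so its direction rests on the scaling.

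The channels opened by calcium or sodium followed the same order. Sk, a small-conductance calcium-activated channel that sets the pause after an impulse, had 199, 213 and 226 CPM in control brains, against medians of 2.66 CPM in head horns, 4.65 in thoracic horns and 9.99 in genitalia (log2 fold change 5.29, SE 0.16, edgeR adjusted p = 1.02e-30). Slo, the large-conductance channel of neurons and muscle, was higher in brain by 3.47 on the log2 scale. Kcnt2, named for a human sodium-activated channel (OTAU009948, scaffold 1179, 8711 to 37056), had 48.4, 63.2 and 75.1 CPM in control brains. Its control epithelial libraries spread far more widely, at 1.27, 2.64 and 48.3 CPM in head horns, 0.25, 5.97 and 52.3 CPM in thoracic horns and 15.9, 35.5 and 80.7 CPM in genitalia. Kcnt2 was called higher in brain than in the epithelia together (log2 fold change 1.99, SE 0.38, edgeR adjusted p = 9.78e-06) and was not called against genitalia alone (0.63, 95% interval -0.35 to 1.61, adjusted p = 0.248).

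The inward rectifiers and the HCN channel had smaller differences than most voltage-gated potassium channels. Irk2 had 114, 116 and 129 CPM in control brains, against 100, 115 and 143 CPM in head horns, 96.6, 113 and 125 CPM in thoracic horns and 108, 132 and 162 CPM in genitalia, and the tissues overlapped. Its brain-over-epithelia value was -0.06 (95% interval -0.13 to 0.02, edgeR adjusted p = 0.164) and 0.77 with library totals. Irk1, its neighbour on scaffold 111, was far less abundant, at 5.22, 6.86 and 7.87 CPM in control brains and medians of 2.38 to 3.87 CPM in the epithelia, and was called higher in brain (log2 fold change 1.19, SE 0.13, edgeR adjusted p = 3.44e-11). Ih, the HCN channel opened by hyperpolarisation, had 57.4, 72.4 and 90.3 CPM in control brains and medians of 16.0 to 21.2 CPM in the epithelia, with 1 genital library reaching 178 CPM (log2 fold change 1.76, SE 0.20, edgeR adjusted p = 1.22e-10).

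All 5 voltage-gated calcium channel genes were higher in brain, and the gap was widest for cac. Cac, the presynaptic channel that triggers transmitter release, had 5.05, 10.9 and 23.8 CPM in control brains and medians of 0.915 to 1.51 CPM in the epithelia (log2 fold change 3.36, SE 0.25, edgeR adjusted p = 4.68e-16). Ca-alpha1d, the L-type channel that also drives contraction in insect muscle, had 225, 237 and 257 CPM in control brains, above every epithelial library. Its epithelial medians were 7.90 CPM in head horns, 26.4 in thoracic horns and 48.6 in genitalia, and the summed muscle markers rank these 3 tissues in the same order (medians of 812, 1681 and 3743 CPM); the part of muscle in that order was not tested. Ca-alpha1t, the low-voltage T-type channel, had the smallest difference of the class, with 75.3, 102 and 110 CPM in control brains and medians of 45.5 to 54.3 CPM in the epithelia (log2 fold change 0.84, SE 0.19, edgeR adjusted p = 0.00014). The auxiliary subunit genes ca-beta and stj (the alpha2-delta subunit straightjacket) were higher in brain by 2.90 and 2.82 on the log2 scale. Gene models on opposite strands overlap ca-alpha1d (larp1) and stj (egg), and the strand setting of the counting is not given in the sources used here, so reads of these pairs may be mixed.

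The TRP genes were the exception, and the TRPA subfamily of heat and irritant sensors split. Trpa1 had 0.675, 1.60 and 3.74 CPM in control brains, against 4.15, 12.4 and 22.3 CPM in head horns, 6.34, 9.93 and 21.1 CPM in thoracic horns and 1.18, 3.88 and 8.34 CPM in genitalia. All brains lay below all horn libraries, and genitalia overlapped both. The log2 fold change of brain over epithelia was -2.36 (SE 0.25, edgeR adjusted p = 2.74e-11), and trpa1 was the 1 member still called lower with library totals (-1.53). Pyx (pyrexia), a heat-gated channel in Drosophila, was lower in brain by the same test (log2 fold change -1.54, SE 0.48, adjusted p = 0.00373, and 0.164 with library totals, where the value was -0.66), with 0.941, 3.85 and 52.9 CPM in control brains and 1.37, 16.1 and 197 CPM in control epithelia. Single libraries of pyx ran far above their tissue's median, and its gene model overlaps coq6 on the other strand. Wtrw (water witch), which senses humid air in Drosophila, was higher in brain (log2 fold change 1.16, SE 0.16, edgeR adjusted p = 2.88e-08), at 13.5, 17.9 and 20.7 CPM in control brains and medians of 5.48 to 8.72 CPM in the epithelia.

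Pain (OTAU009707, scaffold 409, 228630 to 231296, minus strand), in Drosophila the channel painless of larval nociception, was the 1 member called higher in brain whose highest median was in another tissue. It had 22.4, 30.1 and 43.1 CPM in control brains, 2.83, 7.44 and 14.9 CPM in head horns, 4.52, 8.39 and 15.9 CPM in thoracic horns and 12.2, 40.2 and 118 CPM in genitalia. Brains lay above all horn libraries and inside the genital range. Against the epithelia together the log2 fold change was 1.09 (SE 0.17, edgeR adjusted p = 1.89e-07), and against genitalia alone it was -0.61 (SE 0.21, adjusted p = 0.00912), a direction given by the females: in males alone it was 0.17.

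The other TRP genes were low or even across tissues. Trpm, a divalent cation channel, had 50.3, 58.4 and 62.1 CPM in control brains and medians of 55.9 to 73.1 CPM in the epithelia (log2 fold change -0.26, 95% interval -0.63 to 0.10, edgeR adjusted p = 0.184, and 0.65 with library totals). Iav and nan, which form the channel of the insect hearing and stretch organs, had medians of 2.01 and 1.46 CPM in control brains and 2.38 and 1.48 CPM in control epithelia. Iav was called lower in brain (log2 fold change -0.34, SE 0.15, edgeR adjusted p = 0.0289), a call lost with DESeq2 size factors (adjusted p = 0.0941) and turned to 0.49 with library totals, and nan was not called (0.01, adjusted p = 0.979). Nompc, the touch channel of Drosophila, and trpl, a phototransduction channel there, were at medians of 1.14 and 0.553 CPM in control brains and 1.24 and 0.580 CPM in control epithelia and were not called (-0.41 and -0.56, edgeR adjusted p = 0.091 and 0.234). Trpl and trp overlap on opposite strands of scaffold 7.

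In the deposited FPKM values (scaled to gene length and library total), which can be compared between genes, the order of the members changed with the tissue. In control brains sk had the highest median of the 33 members (107 FPKM, above 96.1% of all genes), followed by task7 (84.8 FPKM), ca-alpha1d (82 FPKM) and shal (64.6 FPKM). In each epithelium irk2 was first and hk (OTAU001422) second: irk2 had medians of 20.4 FPKM in head horns, 18.5 in thoracic horns and 35.7 in genitalia, and hk (OTAU001422) 17.2, 18.1 and 28.6 FPKM. Trpm and ca-alpha1t came next in both kinds of horn, at 6.18 and 5.54 FPKM in head horns, and pain and ca-alpha1d in genitalia, at 16.0 and 14.2 FPKM. The ranges over libraries of neighbours in these orders overlapped in the epithelia, so the order of irk2 and hk (OTAU001422) is that of their medians only.

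**Figure D2:**
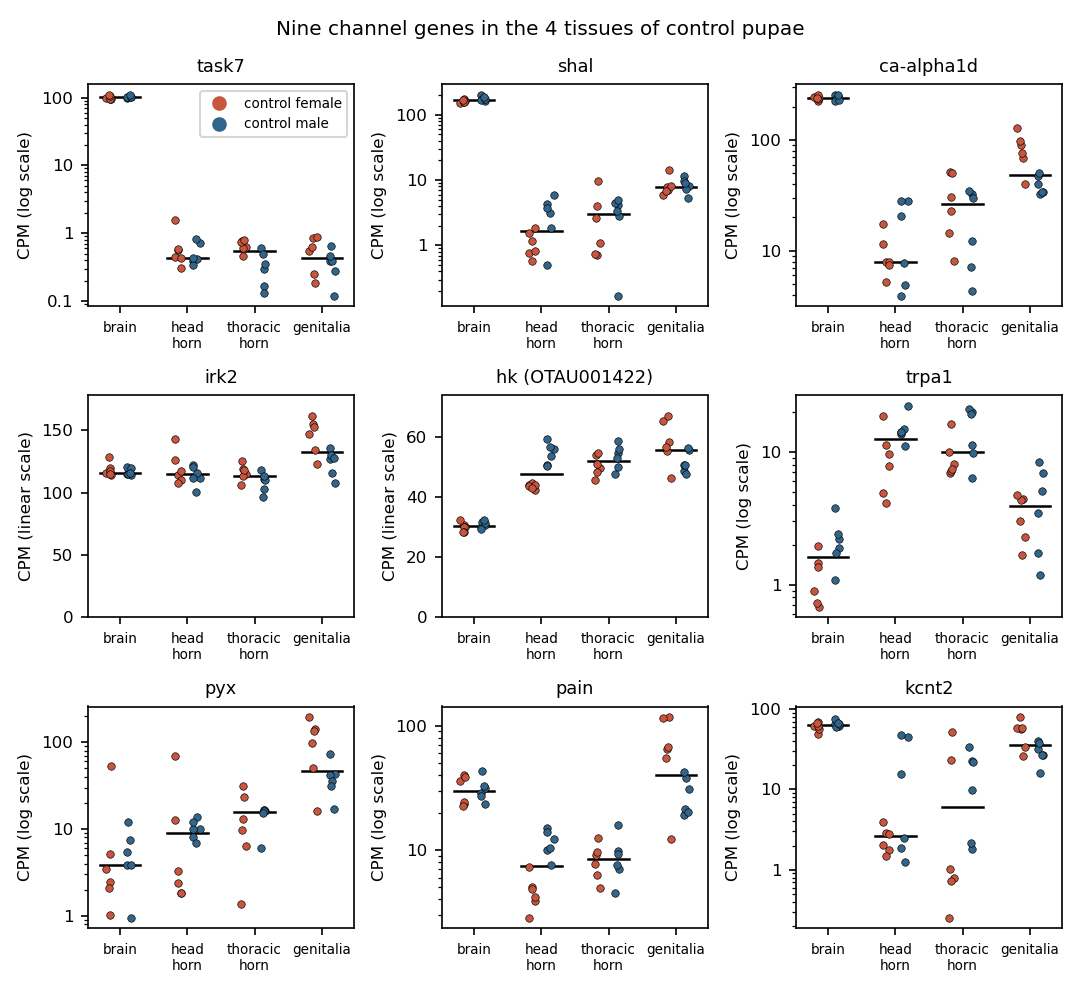
CPM of 9 channel genes in each control library (points; 6 females left, 6 males right, bars at the median of 12) by tissue; the axes are logarithmic except for irk2 and hk (OTAU001422). Task7, shal and ca-alpha1d are highest in brain, irk2 overlaps between tissues, trpa1 is lowest in brain, and pain and pyx reach their highest levels in genitalia (118 and 197 CPM).

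The brain bias had the same shape in dsxRNAi pupae. Of 31 members tested, 22 were higher and 4 lower in dsxRNAi brain than in dsxRNAi epithelia (36.8% and 40% of 11203 genes), with a median log2 fold change of 1.99. Task7 (7.51) and shal (5.29) again had the largest values, and trpa1 (-1.99), pyx (-1.87) and hk (OTAU001422, -0.77) were lower. Nompc was called lower here (-0.86, edgeR adjusted p = 0.0226) and iav was not (-0.31, adjusted p = 0.114); these comparisons were not tested against those in controls. Counting libraries without a model, 14 members were higher in all 12 control brains than in all 36 control epithelial libraries (16.3% of genes tested) and 13 in the dsxRNAi ones (14.6%), and hk (OTAU001422) was the 1 member below all of them in both (9.61% and 7.54% of genes).

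Of the members called lower in control brain, trpa1 alone kept that call under both scalings. Library totals in place of TMM were an alternative chosen after the data were seen. With them the median of all genes moved up by 0.82 on the log2 scale, and 26 members were higher and 1 lower in control brains. Of the 11148 genes tested, 7743 were then higher and 1879 lower, where TMM gave 4257 and 4791, so the background rose as well. Other channel and pump genes, from a list that holds no member, were also mostly higher in control brain: 31 of 42 tested were higher and 10 lower, with a median of 1.49. All 5 genes of the sodium channel list (the voltage-gated channel gene para and its relative nacp60e, the leak channel gene na, and tipe and unc79, which assist such channels; median 5.05) and all 7 ligand-gated receptor genes tested (median 5.05) were higher, and all 3 innexin genes of gap junctions were lower (median -1.25).

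Among the epithelia, the genitalia held more channel RNA than the horns. Against head horns, 20 members were higher and 4 lower in control genitalia (32.8% and 27% of genes), with a median log2 fold change of 0.75 against 0.05 over all genes, and against thoracic horns 18 were higher and 4 lower (31.1% and 24.8%, median 0.44). Shaw (2.76), pain (2.68, SE 0.24, edgeR adjusted p = 9.06e-13), eag (2.64), kcnt2 (2.57, SE 0.56, adjusted p = 0.000131) and pyx (2.48, SE 0.56, adjusted p = 0.000209) had the largest values over head horns. Trpa1 (-1.56), kcnq (-0.51), stj (-0.33) and task6 (-0.31) were lower in genitalia than in head horns and again in genitalia than in thoracic horns, task6 turning to 0.23 and 0.36 with library totals. In males alone 11 and 10 of 31 members were higher in genitalia than in head and thoracic horns, nearer to the background of 24.5% and 21.6% of genes. Muscle and glia lists moved with this comparison (11 of 12 muscle markers and 3 of 4 glia markers were higher in genitalia than in head horns, 1 glia marker was lower, and 4 neuron markers were higher and 4 lower of 12), and their part in the result was not tested.

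Head and thoracic horns differed in 5 members. Sh was higher in head horns (log2 fold change 1.05, SE 0.29, edgeR adjusted p = 0.0116) and kcnq (-0.71), sk (-0.71), ca-beta (-0.86) and ca-alpha1d (-1.0) were lower, where 6.41% and 5.87% of genes were higher and lower. The sh difference was 2.1 in females alone and 0.00 in males alone.

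The sexes were compared first in control head horns, the tissue in which males and females differ most visibly. Beside pain and kcnt2, 1 member was higher in females and 1 was lower of the 21 tested (3.23% and 3.3% of 9111 genes), and 5 had an unadjusted p under 0.05. The median log2 fold change of females over males was -0.18 over these members and 0.01 over all genes. Sh (OTAU004858, scaffold 100, 533380 to 537175), the Shaker A-type channel, had 6.37, 9.65 and 20.1 CPM in control females and 1.02, 2.81 and 6.16 CPM in control males. All 6 females lay above all 6 males, S61 being the highest. The log2 fold change was 1.82 (SE 0.42, edgeR adjusted p = 0.0242). The call was lost without S63, S64, S71 or S72 (adjusted p up to 0.0612) and with library totals (1.60, adjusted p = 0.0662), and was kept without the 4 muscle-rich libraries (2.33, adjusted p = 0.017).

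Hk (OTAU001422), named for the beta subunit that binds Shaker, was lower in females. It had 42.3, 44 and 44.8 CPM in control females and 50.5, 54.9 and 59.4 CPM in control males, tight groups with no overlap. The log2 fold change was -0.32 (SE 0.05, edgeR adjusted p = 0.00579), held without any 1 library (adjusted p up to 0.018) and not with library totals (-0.35, adjusted p = 0.616). Groups free of overlap were seen for 4.9% of genes in this comparison. Of 34 other channel and pump genes tested 1 was called, nrv3, a sodium pump subunit, lower in females (-1.75, adjusted p = 0.00252). Some markers of other cell types were called lower in females in the same comparison: the hemocyte markers hml (-2.39, edgeR adjusted p = 0.00252) and eater (-2.26, adjusted p = 0.0463) of 3 tested, the muscle marker mhc (-2.22, adjusted p = 0.00713) of 12 and the neuron marker rab3 (-2.26, adjusted p = 0.0118) of 8. The other markers of these lists were not called, and rab3 had a median of 1.56 CPM in control head horns. The 3 hemocyte markers summed to 121 to 335 CPM in control females and 325 to 482 CPM in control males, and 11 neuron markers other than ple to 258 to 327 CPM in control females and 301 to 333 CPM in control males. Most of the neuron sum was snap25 and csp (medians of 138 and 98.6 CPM in control head horns). The hemocyte marker pxn had a median of 109 CPM there and 283 CPM in control brains. The part of these cell types in the sh, hk (OTAU001422) and pain values was not tested.

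Pain and kcnt2 in head horns, for which they had been picked, are given as a description. Pain had 5.10, 11.7 and 16.8 CPM in dsxRNAi females, 2.97, 4.17 and 8.59 CPM in dsxRNAi males, 2.83, 4.54 and 7.28 CPM in control females and 7.6, 11.3 and 14.9 CPM in control males. All control males lay above all control females, and 5 of 6 dsxRNAi males lay below all dsxRNAi females, so the order of the sexes was opposite in the treatments. Kcnt2 had 0.98, 5.42 and 128 CPM in dsxRNAi females, 0.451, 0.79 and 2.74 CPM in dsxRNAi males, 1.48, 2.43 and 3.97 CPM in control females and 1.27, 9.10 and 48.3 CPM in control males. Its high values sat in single libraries: S51 (128 CPM) and S54 (73.5 CPM) of dsxRNAi females and S67 (44.5 CPM), S68 (48.3 CPM) and S72 (15.7 CPM) of control males, the other libraries of all 4 groups lying at or under 7.93 CPM.

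**Figure D3:**
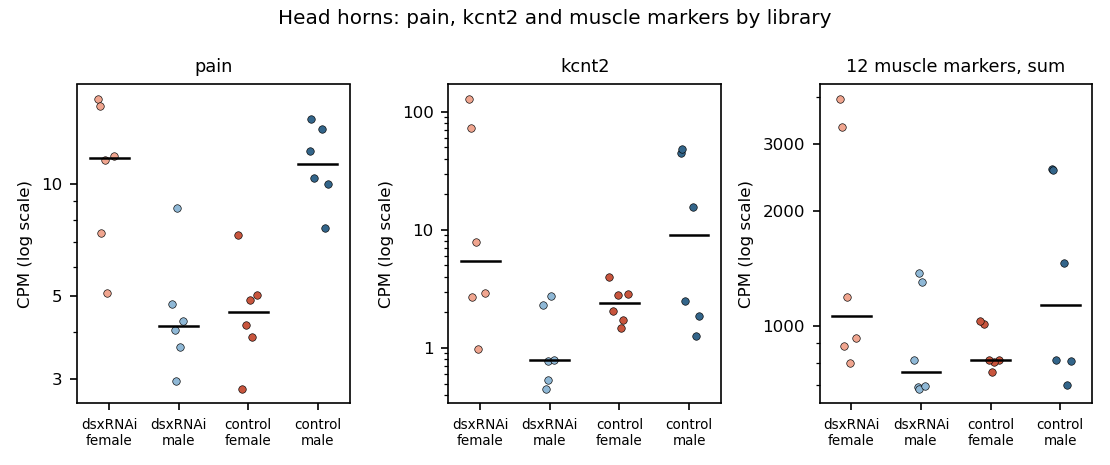
CPM of pain (left), kcnt2 (middle) and the sum of 12 muscle markers (right) in each head horn library, on log axes, with bars at group medians. The 4 libraries with the highest kcnt2 levels (44.5 to 128 CPM) are the 4 with the highest muscle sums (2576 to 3950 CPM). These libraries and S72 also hold the highest pain levels (12.3 to 16.8 CPM).

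These 4 libraries were also the ones with the most muscle marker RNA, at 3950, 3328, 2578 and 2576 CPM for S51, S54, S67 and S68. The female over male log2 fold change of pain was -1.3 in controls and 1.29 in dsxRNAi, and that of kcnt2 was -2.94 in controls and 4.89 in dsxRNAi. Knockdown differences over control were 1.3 for pain in females and -1.28 in males, and 3.89 for kcnt2 in females and -3.94 in males. Without the 4 libraries the values of pain kept their signs and were all smaller in size. They were -1.16 and 0.92 between the sexes and 0.95 and -1.14 for knockdown. Those of kcnt2 shrank to -1.11 and 1.57 between the sexes and to 0.59 and -2.09 for knockdown. Libraries S51, S54, S67, S68 and S72 held the highest pain levels (12.3 to 16.8 CPM) and the highest muscle sums (1463 to 3950 CPM). The next highest muscle sums, 1374 and 1302 CPM, were in S59 and S58 of dsxRNAi males, with pain at 8.59 and 3.66 CPM. Control males S69, S70 and S71 had muscle sums of 699 to 811 CPM and pain at 7.6 to 10.3 CPM. The part of muscle RNA in the pain and kcnt2 levels was not tested further.

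Outside the head horns these genes could be tested, and edgeR called no sex or knockdown difference. In control genitalia pain had 12.2, 66.1 and 118 CPM in females and 19.2, 26.1 and 42.6 CPM in males, 5 of 6 females above all males and S89 below them (log2 fold change 1.33, SE 0.43, edgeR adjusted p = 0.0592). Kcnt2 there had 25.8, 57.4 and 80.7 CPM in females and 15.9, 29.5 and 40.3 CPM in males (0.80, SE 0.28, adjusted p = 0.066). DESeq2 on the same libraries called both higher in females (pain 1.36, adjusted p = 0.014, and kcnt2 0.82, adjusted p = 0.0284), over all 96 libraries it called pain (adjusted p = 0.00113), and without S89 edgeR called both (1.55, adjusted p = 0.00185, and 0.90, adjusted p = 0.0205). The female medians were the higher for both, opposite to control head horns, and whether the sex difference differed between these tissues was not tested. In control brains the sexes lay together, at medians of 29.9 CPM in females and 30.1 CPM in males for pain (-0.03, SE 0.18) and of 61.3 and 65.3 CPM for kcnt2 (-0.12, SE 0.08). After knockdown, pain differed from controls by 0.31 in male and 0.12 in female thoracic horns, by 0.20 and -0.14 in male and female genitalia and by 0.12 and 0.10 in male and female brains on the log2 scale, none called. Kcnt2 in thoracic horns spread widely in all 4 groups, from 0.632 to 20.5 CPM in dsxRNAi females, 2.41 to 55 CPM in dsxRNAi males, 0.25 to 52.3 CPM in control females and 1.84 to 33.4 CPM in control males.

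The genitalia were the tissue with most members called between the sexes. Of 30 tested, 4 were higher in females and 0 lower (6.53% and 3.73% of 10014 genes), 14 had an unadjusted p under 0.05, and the median log2 fold change was 0.39. Ca-alpha1d, the L-type calcium channel, had 40.4, 82.9 and 129 CPM in control females and 32.3, 37 and 50.2 CPM in control males, with S89 the 1 female inside the male range. It was higher in females by 1.08 on the log2 scale (SE 0.23, edgeR adjusted p = 0.0256). Ca-beta, its auxiliary subunit, had 24.6, 29.5 and 37.3 CPM in females and 19.4, 20.5 and 23.6 CPM in males, without overlap (0.57, SE 0.11, edgeR adjusted p = 0.0199). It was the 1 member with no overlap, which 3.25% of genes showed.

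The other members called were voltage-gated potassium channels. Sh had 5.04, 8.88 and 14.8 CPM in control females and 2.83, 3.92 and 5.15 CPM in control males (1.21, SE 0.27, edgeR adjusted p = 0.0307), so it was the higher in females of both head horns and genitalia. Shab, a delayed rectifier, had 1.26, 12.3 and 14.9 CPM in females and 2.47, 3.35 and 4.12 CPM in males (1.67, SE 0.42, edgeR adjusted p = 0.0373), S89 at the bottom and the other 5 females at 10.7 CPM or more. In dsxRNAi genitalia the medians kept this order, at 96.2 CPM in females and 42.7 in males for ca-alpha1d, 27.5 and 21.7 for ca-beta, 11.5 and 4.11 for sh and 10.9 and 4.93 for shab.

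**Figure D4:**
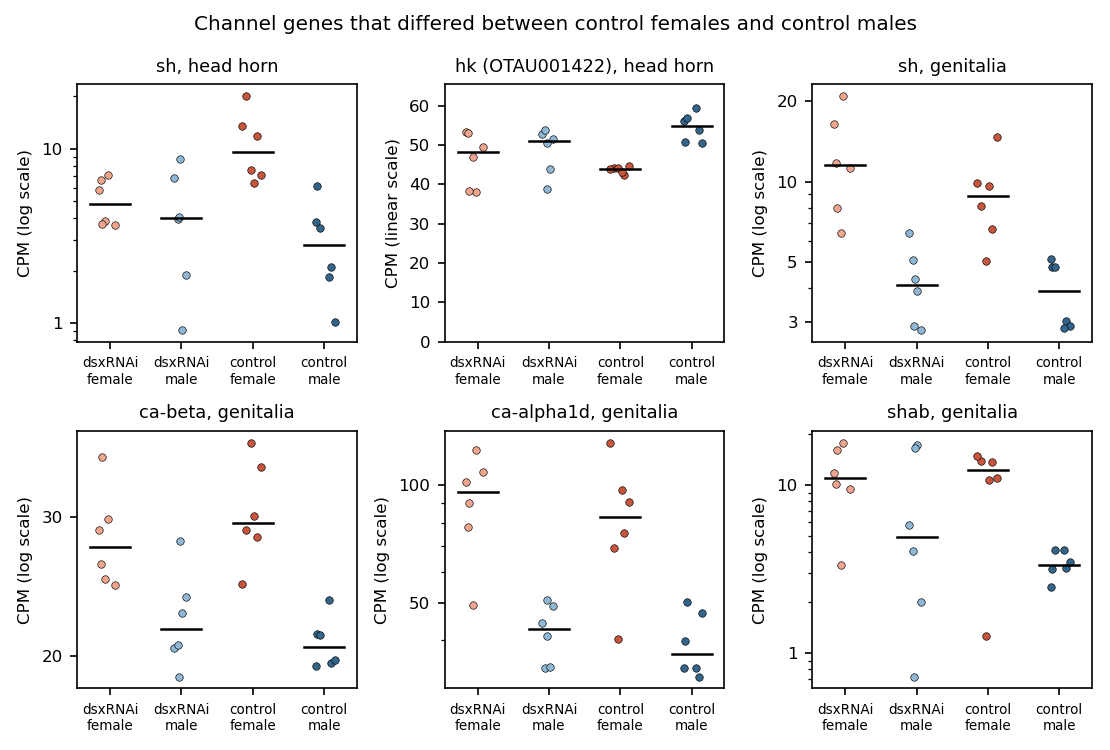
CPM of the channel genes called between control females and control males, by library, in dsxRNAi female, dsxRNAi male, control female and control male head horns or genitalia; bars are medians and axes are logarithmic except for hk (OTAU001422). Control females lie above control males for sh in head horns (6.37 to 20.1 against 1.02 to 6.16 CPM) and below them for hk (OTAU001422), and in genitalia 1 female library falls to 1.26 CPM for shab.

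These genital calls changed with single libraries and with library totals, while their values moved less. With 1 library left out, ca-beta kept 0.49 to 0.62, ca-alpha1d 0.92 to 1.22, sh 1.01 to 1.32 and shab 1.57 to 1.91. Their highest edgeR adjusted p values were 0.0543, 0.069, 0.0779 and 0.0883. All were called with DESeq2 size factors, with no filter and by DESeq2 on the same libraries. Of these genes, DESeq2 over all 96 libraries called ca-alpha1d and sh. Without S89, 14 members were higher in females and 1, task6, was lower. The background rose too, from 6.53% higher and 3.73% lower to 23% and 22.2% of 10113 genes. Without any 1 of the other 11 libraries, 0 to 3 members were called higher, and none was without S86, S92 or S93 or with library totals. Muscle markers were higher in females too (8 of 12 called, none lower; sums of 3355 to 12373 CPM in control females and 2664 to 4052 CPM in control males), as were 2 of 4 glia markers with 1 lower. Of 10 neuron markers tested 2 were higher in females, the synaptic marker brp (1.34, edgeR adjusted p = 0.0355) and ple, and 11 neuron markers other than ple summed to 303 to 618 CPM in control females and 273 to 330 CPM in control males. The part of these cell types in the channel differences was not tested.

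In thoracic horns and brain no member was called between the sexes. By edgeR, 0 of 24 members were called in thoracic horns (0.222% and 0.133% of genes) with 0 at an unadjusted p under 0.05, and 0 of 30 in brain (0.1% and 0.0601% of genes) with 3 at an unadjusted p under 0.05. DESeq2 called 0 in both.

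Knockdown of dsx called no member in any sex and tissue by edgeR. In male head horns 0 of 21 were called, beside pain and kcnt2, with 4 at an unadjusted p under 0.05 (0.251% of genes higher and 0.142% lower), and in female head horns 0 of 24 with 4 (0% and 0% of genes). DESeq2 on the same libraries called 2 higher in males, wtrw and cac (264 of 14492 genes higher). It called 0 in females (37 higher and 10 lower of 14527 genes). In the other tissues 0 of 24, 0 of 30 and 0 of 31 were called in male thoracic horns, genitalia and brains, with 1, 2 and 3 at an unadjusted p under 0.05, and 0 of 23, 0 of 28 and 0 of 30 in female ones, with 0, 1 and 0; DESeq2 on the same libraries called 0 in each. The background there was 0% of genes, apart from 0.0101% lower in female genitalia. In brains dsx had 0 to 8 reads per library in either treatment, so the brain comparisons came without a measurable knockdown.

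The knockdown values in head horns were large for some members, and so were their errors. Wtrw had positive values in both sexes (1.01 in males, SE 0.31, edgeR adjusted p = 0.199, and 1.12 in females, SE 0.37, adjusted p = 0.656). For several members the sexes had opposite signs: ca-alpha1d was at 1.26 in females and -1.22 in males, shal at 1.45 and -0.89, slo at 1.12 and -0.94, and sk at 1.17 and -0.40, while sh was at -1.09 in females and 0.52 in males. None of these passed in either sex. The test of the difference itself, the sex by treatment interaction over the 24 head horn libraries, called 0 of 25 members beside pain and kcnt2 (1.17% of genes higher and 0.279% lower), with 8 at an unadjusted p under 0.05. The values were 2.48 for ca-alpha1d (edgeR adjusted p = 0.121), 2.34 for shal (0.129), -1.61 for sh (0.204) and -2.77 for cac (0.126). DESeq2 on the same libraries called 1 higher and 1 lower (371 and 149 of 15087 genes). With the muscle-rich libraries left out, the knockdown values of ca-alpha1d shrank to 0.05 in females and -0.48 in males. Those of slo were then 0.03 and -0.66, and those of sk 0.85 and -0.06. Shal was at -0.44 in males, and sh at -1.26 in females and 1.05 in males. The interaction was then 0.52 for ca-alpha1d, 1.25 for shal, 0.68 for slo and 0.90 for sk. For sh and cac it was -2.30 and -2.37.

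**Figure D5:**
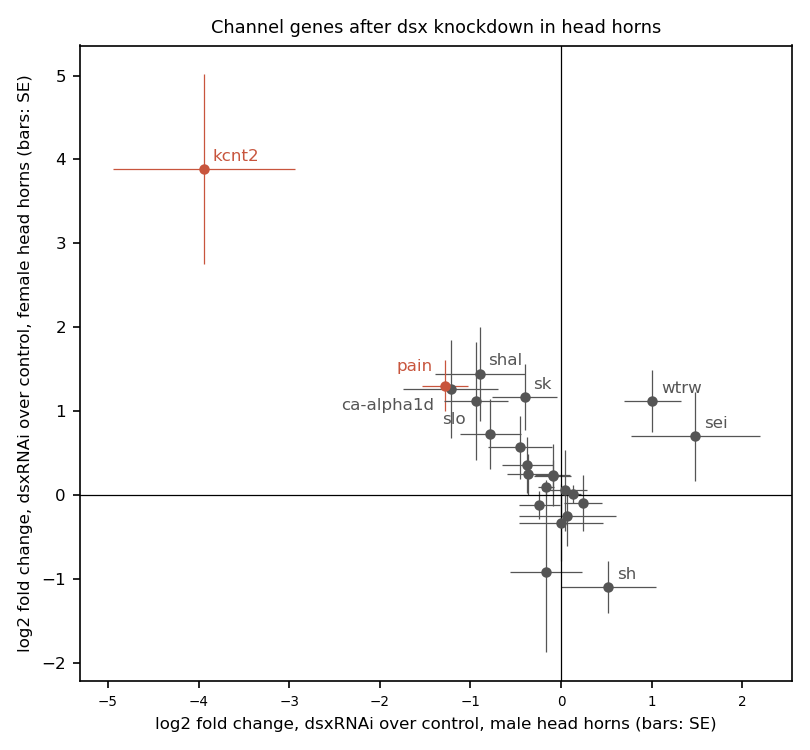
Log2 fold change of dsxRNAi over control in female head horns (vertical) against that in male head horns (horizontal) for the 23 channel genes fitted in both, with SE bars. Pain and kcnt2, picked for this pattern, lie at upper left (1.3 and 3.89 in females, -1.28 and -3.94 in males), and none of the others was called in either sex.

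Muscle and hemocyte markers moved in the same head horn comparisons. The 12 muscle markers summed to 799 to 3950 CPM in dsxRNAi females (median 1060), 683 to 1374 CPM in dsxRNAi males (754), 758 to 1032 CPM in control females (812) and 699 to 2578 CPM in control males (1137). The median log2 fold change over the muscle list was 2.03 for knockdown in females and -2.63 in males, and 5 of 12 were called higher in the interaction, the direction that ca-alpha1d, shal, slo and sk had there. For knockdown alone, mhc was called lower in males (-2.23, edgeR adjusted p = 0.0499) and no other muscle marker was called in either sex. The highest sums of dsxRNAi females and of control males were those of the muscle-rich libraries. Of 3 hemocyte markers, eater was called higher in the interaction too (3.95, edgeR adjusted p = 0.0386), and their sums were 136 to 321 CPM in dsxRNAi females, 110 to 654 CPM in dsxRNAi males, 121 to 335 CPM in control females and 325 to 482 CPM in control males. No muscle or hemocyte marker was at 0 in any head horn library. Without the 4 muscle-rich libraries the interaction called 1 gene higher and 1 lower of all genes, in place of 113 and 27. All 4 came from dsxRNAi females and control males, so these groups were smaller in that fit. Fewer calls from fewer libraries and from less muscle RNA cannot be told apart here. The part of muscle and hemocytes in the channel values was not tested. In female controls against male controls the sh difference was larger without those libraries, as given above.

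Between dsxRNAi females and dsxRNAi males, 0 of 23 members beside pain and kcnt2 were called in head horns (0% of genes, 3 members at an unadjusted p under 0.05, and 0 by DESeq2 on the same libraries). Sh had 3.65, 4.84 and 7.06 CPM in dsxRNAi females and 0.915, 4.01 and 8.77 CPM in dsxRNAi males, and hk (OTAU001422) 38, 48.2 and 53.2 CPM in dsxRNAi females and 38.8, 51.1 and 53.9 CPM in dsxRNAi males. These 2 genes, called between the control sexes, thus overlapped between the sexes after knockdown. The interaction that would test this change called neither of them, so a change was not established.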

How the data were processed

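RNA was measured in 96 stranded, single-end libraries, 6 in each of 16 groups taken from the labels (treatment, sex, tissue). The deposited read counts per gene were made by the authors with Trimmomatic 0.32, TopHat2 2.1.0 and HTSeq 0.6.1p1 (versions from the submitters' processing notes) on O. taurus gene models v0.5.3; the deposited FPKM values, made by the authors with DESeq2, follow library totals. The strand setting of the counting is not given in the sources used here. Depth was 3615803 to 19008005 reads per library, so genes at a few reads carry large counting errors.

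Counts were tested with edgeR 4.0.16 (R 4.3.3): filterByExpr, TMM, robust quasi-likelihood fits and Benjamini-Hochberg adjustment over all genes tested, with 0.05 as threshold. Tissue comparisons used the 48 libraries of a treatment, with the sexes and the 3 epithelia averaged with equal weight; sex and knockdown comparisons used the 12 libraries compared, and the interaction the 24 of head horns. CPM levels were TMM-scaled over all 96 libraries, and intervals are 1.96 SE. A fold against few reads depends on the prior count of edgeR. Alternatives were DESeq2 1.42.0 (on the same and on all 96 libraries), its size factors, no filter, each sex alone, each library left out and, chosen after seeing the data, library totals and head horns without 4 muscle-rich libraries. The fits were tested on simulated data. Figures were drawn with matplotlib 3.10.9.

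Members and lists were chosen with earlier results of these data known. Levels are given in full for pain and kcnt2, for the members of each class with the largest and smallest brain-over-epithelia value, and for members called lower in brain or called by sex, knockdown or interaction; the others by value and count. Sequences and a genome were not used here. Library numbers (S1 to S96) come from the labels.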

Additional observations from a re-analysis of the deposited data

Results flagged for a closer look

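Of 56 sets of 6 libraries checked for a library standing apart (by the gap to its nearest neighbour over the range of the group, against Dixon's 95% limit), 2 held one, and chance gives about 1 in 20. Pain in dsxRNAi male head horns was highest in S59, at 8.59 CPM, with the next library at 4.76 CPM (gap 0.683 of the range). Shab in control female genitalia was lowest in S89, at 1.26 CPM, with the next library at 10.7 CPM (gap 0.690 of the range). The same library had the lowest pain (12.2 CPM), ca-alpha1d (40.4 CPM) and sh (5.04 CPM) levels of its group and the highest ca-beta level (37.3 CPM).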

How the results depend on the processing

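No paired analysis was possible because the labels number the libraries S1 to S96 with no number shared between groups. Library totals (chosen after seeing the data) cut the members lower in brain to 1 in controls and 2 in dsxRNAi. Of all genes, 1879 of 11148 and 1714 of 11203 were then lower. Against head horns, thoracic horns and genitalia they left 1, 1 and 5 members lower (1542, 1534 and 2720 of 11148 genes). For head over thoracic horns they left 1 lower (351 genes). For genitalia over head and thoracic horns they left 1 and 2 lower (716 and 519 genes). By sex they left 0 and 0 called in head horns, where 91 genes were higher and 100 lower of 9111. In genitalia they left 0 higher (119 of 10014 genes). They reversed irk2 to 0.77 (0.73 in dsxRNAi, 0.20 against genitalia), hk (OTAU001422) to 0.043 (0.049 in dsxRNAi, 0.29 against either horn), trpm to 0.65 (0.78 in dsxRNAi, 0.67 against thoracic horns), iav to 0.49 (0.51 in dsxRNAi, 0.021 against genitalia) and task6 to 0.23 and 0.36 (genitalia over head and thoracic horns). Females alone gave 2 lower in brain (3887 of 10698 genes) and 1 lower in head than in thoracic horns (223 genes). They gave 2 and 2 lower in genitalia than in head and thoracic horns (2380 and 1953 genes). Males alone gave 4 lower in brain than in genitalia (3972 of 10689 genes). They gave 0 higher in head than in thoracic horns (515 genes). In genitalia, 11 and 10 were higher than in head and thoracic horns (2617 and 2307 genes). Males alone reversed pain for brain over genitalia (0.17). They also reversed hk (OTAU001422) for genitalia over head horns (-0.080) and over thoracic horns (-0.067). DESeq2, on the same libraries and over all 96, called 2 and 4 lower in female head horns. Of all genes, 621 of 14495 and 467 of 16376 were lower there. It called 13 and 8 higher in female genitalia (1754 of 14947 and 2381 of 16376 genes). After knockdown in male head horns it called 2 and 4 higher (264 of 14492 and 429 of 16376 genes). In the interaction it called 1 and 5 higher (371 of 15087 and 525 of 16376 genes). There, 1 and 3 were lower (149 and 215 genes). Over all 96 it called 1 higher after knockdown in female head horns (211 of 16376 genes). It called 2 in male thoracic horns (217 genes) and 1 in dsxRNAi females over males (273 genes). With 1 library left out, 0 to 14 members were higher and 0 to 1 lower in female genitalia. The 14 and 1 came without S89, where 2323 genes were higher and 2245 lower of 10113. In female head horns 0 to 1 were higher and 1 to 2 lower, and in the interaction 0 to 2 were higher. For the other left-out libraries the shares over all genes are not given here. With 1 head horn library left out, pain kept -1.45 to -1.20 between control sexes and kcnt2 -3.19 to -2.41. The cause of these changes was not tested.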
